A study of Mus musculus with 6 samples.

Results

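AMPA receptors and the proteins that assemble, anchor and move them were examined in the deep cerebellar nuclei of mice trained in eyeblink conditioning. The set held 10 genes: the pore-forming subunits Gria1, Gria2, Gria3 and Gria4, the auxiliary subunit gene Cacng2, the partner genes Grip1, Pick1 and Nsf, and the pentraxin genes Nptx1 and Nptxr. Members were all probe sets whose platform annotation gave a single gene symbol that was, or had become, one of these names. This gave 22 of 36701 probe sets, for 9 of the 10 genes. The only probe set of Nptxr was annotated also to Npcd, a readthrough gene that spans it, so Nptxr had no value of its own.

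The mice were C57BL/6 males of 11 to 18 weeks. After implantation of 4 eyelid wires and 3 days of recovery training lasted 7 days, with tones of 352 ms and periorbital shocks of 100 ms. In the paired group the shock began 252 ms into the tone and both stopped together, while the unpaired group received tone and shock apart from each other in a pseudorandom sequence. Both groups thus shared the surgery, the tones and the shocks, and no untrained group is part of the comparison. Tissue centred on the anterior interpositus nucleus was taken with a syringe needle on the implanted side, and 10 to 15 nuclei were pooled. Each training group was measured once on each of 3 array designs, A, B and C, which carry different probe sets, so there were 6 arrays and no replicate of any of them. No difference below has a test or a p-value, and the number of arrays limits the precision. With 1 array of pooled tissue per group and design, an effect of training cannot be told apart from differences between pools, dissections or arrays. In pooled tissue, more cells of a type and more RNA per cell cannot be told apart.

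AMPA receptors are glutamate-gated channels of 4 subunits that carry most fast excitatory transmission. A receptor that holds the Gria2 subunit, in its RNA-edited form, passes little calcium, and the other subunits set its kinetics and how it is delivered to synapses. Cacng2 encodes stargazin, which brings AMPA receptors to the surface and slows their closing. Neurons of the interpositus nucleus receive glutamate from mossy and climbing fibre collaterals and are inhibited by Purkinje cells, and this nucleus is required for the conditioned blink.

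A difference is given as the log2 ratio, paired over unpaired, after the paired array was shifted to a median log2 ratio of 0 within its design. A positive value means a higher signal in the paired pool. Signals are log2 values as deposited. The rank of a signal is its percentile among all probe sets of that array. Ranks and signals describe each probe set by itself, since the brightness of different probes does not order their genes. A probe set was kept for counting when its mean signal was at or above the median of its design. Of the 22 member probe sets 12 were kept, from 7 genes, and 7 of the 12 lay at or above the 75th percentile of mean signal in their design. Of the 10 others, 4 were at or under the floor (the 25th percentile of their design) in both pools. Gria4 and Grip1 had no kept probe set.

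**Figure D1:**
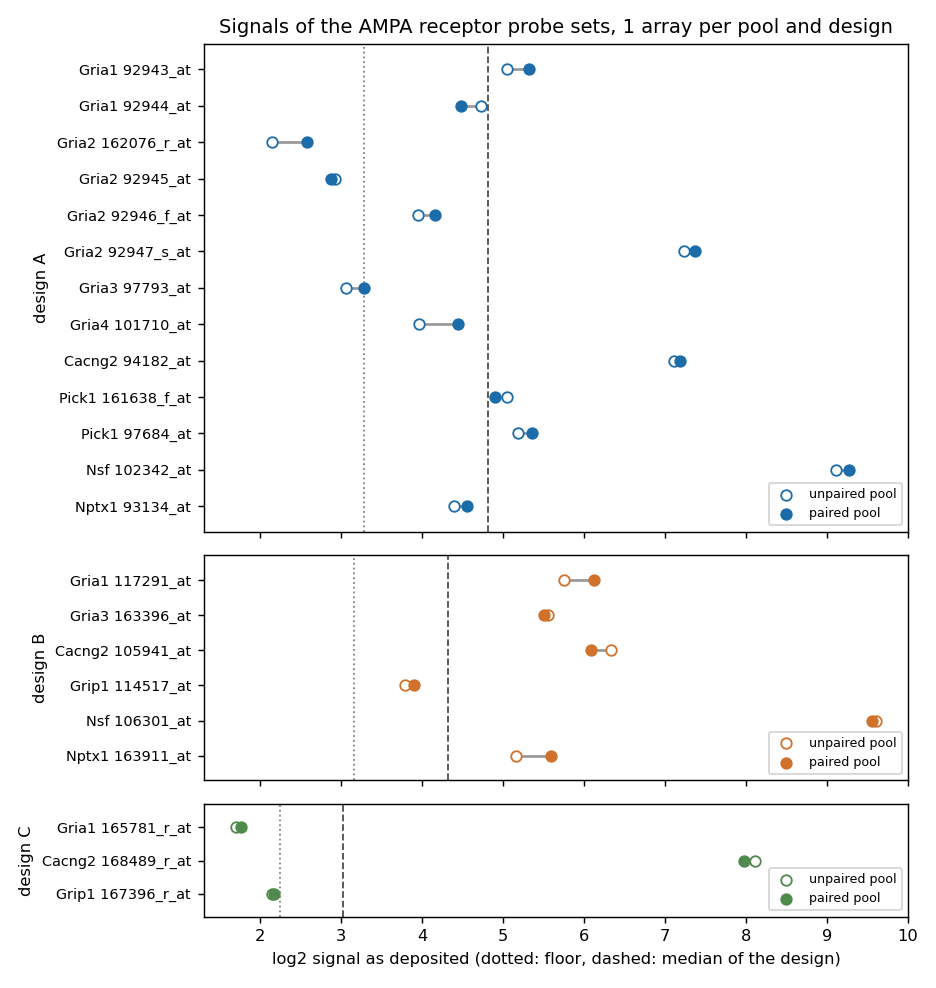
Log2 signal as deposited (x axis) of every AMPA receptor probe set (y axis), with the unpaired pool as open and the paired pool as filled circles, in a panel for each array design. Each circle is 1 array, the dotted line is the floor and the dashed line the design's median; Nsf, Cacng2 and 1 Gria2 probe set lie far to the right, and Gria4 and both Grip1 probe sets lie left of the median.

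No kept member probe set was 1.5-fold apart between the pools in either direction (0 of 12). Over all 18351 kept probe sets, 0.349% were at least 1.5-fold higher and 0.332% at least 1.5-fold lower in the paired pool. At 1.2-fold, a limit chosen after the values were seen, 3 of the 12 were higher, 2 of Gria1 and 1 of Nptx1, and 0 were lower. The shares over all kept probe sets were 8.03% higher and 8.33% lower. The 12 log2 ratios ran from -0.24 to 0.44 with a median of 0.12, and 7 were above 0. Over all kept probe sets the shift itself sets the median to 0, with 9175 above and 9175 below it. The median size of a log2 ratio, without its sign, was 0.16 for the members and 0.12 for all kept probe sets.

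Among the pore-forming subunits, Gria1, whose subunit is added to synapses in several forms of potentiation, had 4 probe sets. On design B, the log2 signal of probe set 117291_at was 5.76 unpaired and 6.12 paired, at ranks 76.9 and 82.3, so the paired array was the brighter. Its log2 ratio was 0.37, or 1.29-fold, and 6.83% of the kept probe sets of design B were at least as far apart. On design A, 92943_at read 5.05 and 5.32, a log2 ratio of 0.28 that 13.4% of kept probe sets there matched or passed. The mean of these kept probe sets was 0.32, or 1.25-fold, and 6.70% of the 10579 genes with a kept probe set had a mean at least as far from 0.

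The other Gria1 probe sets did not show the same difference. Probe set 92944_at on design A lay just under the median of its design, at 4.72 unpaired and 4.48 paired, for a log2 ratio of -0.24. The last, 165781_r_at on design C, was under the floor in both pools, at 1.70 and 1.76. Without the signal filter and the floor the mean over all 4 Gria1 probe sets was 0.12, so the higher Gria1 value in the paired pool rests on which probe sets are read.

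Gria2, the subunit that sets calcium permeability, had 4 probe sets, all on design A. Only 92947_s_at was kept, a bright one that read 7.23 unpaired and 7.37 paired, at ranks 85.6 and 87.6. Its log2 ratio was 0.15, and 37.8% of kept probe sets on that design were at least as far apart. Its s suffix marks probes shared among several transcripts. Probe set 92946_f_at read 3.94 and 4.16, above the floor and under the median, with a log2 ratio of 0.22. The others lay under the floor in both pools, 92945_at at 2.92 and 2.87 and 162076_r_at at 2.15 and 2.57. By mean signal the probe sets of this 1 gene thus stood at percentiles as far apart as 4.77 for 162076_r_at and 86.7 for 92947_s_at.

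Gria3, a subunit whose tail binds the same PDZ proteins as that of Gria2, had 1 kept probe set, 163396_at on design B. It read 5.56 unpaired and 5.50 paired, a log2 ratio of -0.05, and 80.4% of kept probe sets there were at least as far apart. The second, 97793_at on design A, was at 3.06 unpaired and 3.28 paired, at or near the floor of 3.28 in both pools.

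Gria4, a subunit with fast kinetics, had a single probe set, 101710_at on design A, and it missed the signal filter. It read 3.95 unpaired and 4.45 paired, at ranks 36.9 and 43.8 and above the floor in both. The log2 ratio of 0.50, or 1.42-fold, was the largest of any of the 22 member probe sets. With no filter and no floor 1.90% of all probe sets of design A were at least as far apart. No other Gria4 probe set could be set beside it.

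**Figure D2:**
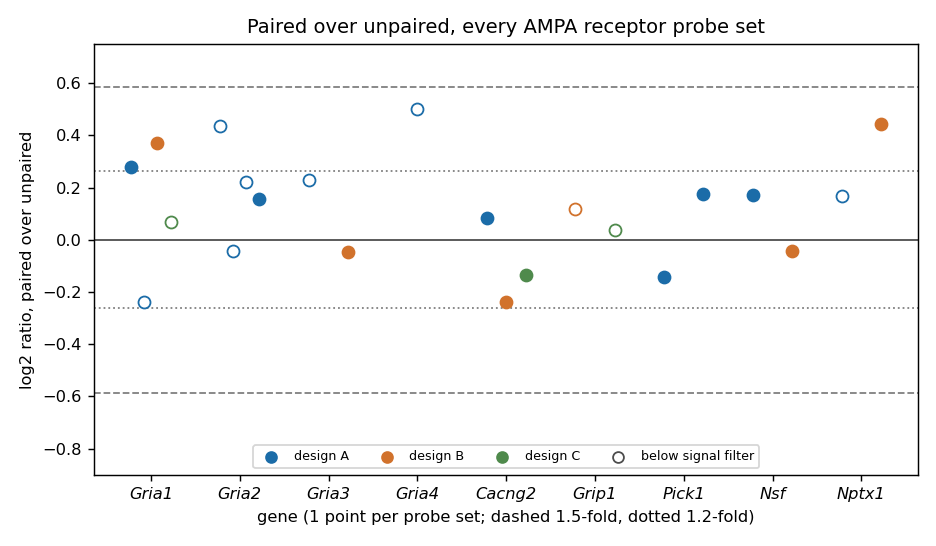
Log2 ratio, paired over unpaired and without a floor (y axis), of every AMPA receptor probe set, grouped by gene (x axis) and coloured by array design; open circles were under the signal filter. All 22 points lie within 1.5-fold (dashed lines), and the 5 above the upper dotted 1.2-fold line belong to Gria1 (2 points), Gria2, Gria4 and Nptx1, of which those of Gria2 and Gria4 were under the filter.

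Cacng2, the stargazin gene, was the only member with a kept probe set on every design. On design A, 94182_at read 7.11 unpaired and 7.19 paired, a log2 ratio of 0.09. On design B, 105941_at had 6.33 and 6.08, a log2 ratio of -0.24 that 21.9% of kept probe sets there matched or passed. On design C, 168489_r_at had 8.11 and 7.97, a log2 ratio of -0.13, at ranks 98.5 and 98.3. The mean of the 3 was -0.10, or 1.07-fold lower in the paired pool, and 53.0% of genes had a mean at least as far from 0. Cacng2 signal was thus high in its designs in both pools, and its probe sets went in both directions.

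The intracellular partners bind the tails of the subunits. Nsf, an ATPase of membrane fusion that also binds the Gria2 tail, was among the brightest probe sets on both of its designs. Probe set 106301_at on design B read 9.61 unpaired and 9.56 paired, at ranks of 99.7 in both, with a log2 ratio of -0.04. On design A, 102342_at read 9.11 and 9.27, with a log2 ratio of 0.17 and ranks of 97.0 and 97.5. Their mean was 0.06, and 67.0% of genes were at least as far from 0.

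Pick1, a PDZ and BAR domain protein that takes part in the internalisation of Gria2 receptors, had a pair of kept probe sets on design A. Probe set 97684_at read 5.18 unpaired and 5.35 paired, a log2 ratio of 0.18. Probe set 161638_f_at read 5.05 and 4.90, a log2 ratio of -0.14. Their mean was 0.02, a value that was -0.02 under loess scaling, and 91.5% of genes were at least as far from 0.

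Grip1, a scaffold of several PDZ domains that holds Gria2 and Gria3 at synapses and on transport vesicles, was not measured above the filter. On design B, 114517_at read 3.79 unpaired and 3.90 paired, above the floor. On design C, 167396_r_at lay under the floor at 2.14 and 2.17. The related scaffold gene Grip2 had a log2 ratio of 0.0052 on its kept probe set.

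Neuronal pentraxins are secreted or membrane-bound proteins that cluster AMPA receptors from outside the cell. Nptx1 had the largest log2 ratio of the kept member probe sets, on design B. Probe set 163911_at read 5.16 unpaired and 5.59 paired, at ranks 66.7 and 74.2. The log2 ratio was 0.44, or 1.36-fold, and 3.54% of kept probe sets on that design were at least as far apart. The second, 93134_at on design A, was just under the filter with 4.39 and 4.55, a log2 ratio of 0.17. Both were higher in the paired pool, and with neither filter nor floor their mean was 0.31. Nptx2, the activity-regulated pentraxin, had a log2 ratio of 0.05 on its kept probe set. The probe set annotated to both Npcd and Nptxr read 6.65 unpaired and 6.68 paired on design B, a log2 ratio of 0.04.

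The probe sets of 1 gene gave the only available view of measurement error. Of the 4 members with 2 or more kept probe sets, Gria1 had both above 0, and Cacng2, Pick1 and Nsf had probe sets on both sides of 0. Over all genes with 2 or more kept probe sets, 1989 of 3437 (57.9%) had both directions. The SD of a kept probe set around its gene mean was 0.16 over the 9 probe sets of those 4 members and 0.20 over all 8324 probe sets of such genes. This spread holds probe and array error and leaves out the spread between pools of mice. Of the 12 kept member probe sets, 4 lay farther from 0 than the SD of 0.20. On the higher side were both of Gria1 and that of Nptx1, and on the lower side Cacng2 105941_at, at -0.24. Passing this limit was common, since the SD of all kept log2 ratios was 0.19. On design B 21.9% of all kept probe sets were at least as far apart as 105941_at. On design A 21.8% were at least as far from 0 as a log2 ratio of 0.22. On those designs the share past 0.20 was thus at least as large. The exact share was not counted, so the 4 of 12 is not read as particular to the members.

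The wider AMPA receptor pathway was described with 4 gene lists, each gene by the mean log2 ratio of its kept probe sets. Over all 10579 genes 49.0% were higher in the paired pool and the median was -0.0039. The 7 measured members had a median of 0.06, with 5 higher and 2 lower. Of 24 auxiliary subunits and assembly proteins 18 were measured, 11 higher and 7 lower, with a median of 0.02. Shisa6, an auxiliary subunit of the CKAMP family, was highest at 0.48, and Olfm2, a noelin found in AMPA receptor complexes, lowest at -0.39. The Shisa6 value came from 1 kept probe set, 137132_f_at on design C, at 3.70 unpaired and 4.18 paired after scaling. The median of that design was 3.02. Of the other stargazin relatives, Cacng5 stood at 0.38, Cacng8 at 0.16 and Cacng4 at -0.28.

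Of 40 anchoring and traffic genes 35 were measured, 17 higher and 18 lower, with a median of -0.0058. Napg, an attachment protein of the same family as the partners that recruit Nsf, was highest at 0.46, while Napa stood at -0.24 and Napb at 0.05. The Napb probe sets ran from -0.16 to 0.41. Kif5b, a kinesin motor gene, was lowest at -0.39. Its probe set 113588_f_at was the only one of the 4 lists past 1.5-fold, with 8.83 unpaired and 8.22 paired after scaling and a log2 ratio of -0.61. It was 1 of the 67 kept probe sets of this list. Over all kept probe sets 0.332% were at least 1.5-fold lower. This probe set has an f suffix, and the other kept Kif5b probe sets stood nearer 0, 160417_at at -0.34 and 168342_r_at at -0.22. The means of the other kinesin-1 motor genes lay the other way, Kif5a at 0.26 and Kif5c at 0.31. Their probe sets differed, from -0.0005 to 0.55 for Kif5a and from 0.07 to 0.55 for Kif5c.

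Of 24 kinase, phosphatase and editing enzyme genes 18 were measured, 8 higher and 10 lower, with a median of -0.03. Camk2d, a calcium/calmodulin kinase subunit gene, was highest at 0.32 and Ppp1cb, a catalytic subunit of protein phosphatase, lowest at -0.39. The Camk2d probe sets differed, 105895_at on design B at 0.09 and 169012_s_at on design C at 0.54, and Ppp1cb had 1 kept probe set. Adarb1, which edits the Gria2 transcript, had -0.10. Of 22 pentraxins and synapse organisers 12 were measured, 5 higher and 7 lower, with a median of -0.05. Grid1, a delta receptor gene, was highest at 0.12 and the adhesion gene Lrrtm1 lowest at -0.53, from 1 kept probe set. The 4 list medians lay between -0.05 and 0.02, and within each list genes stood on both sides of 0.

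**Figure D3:**
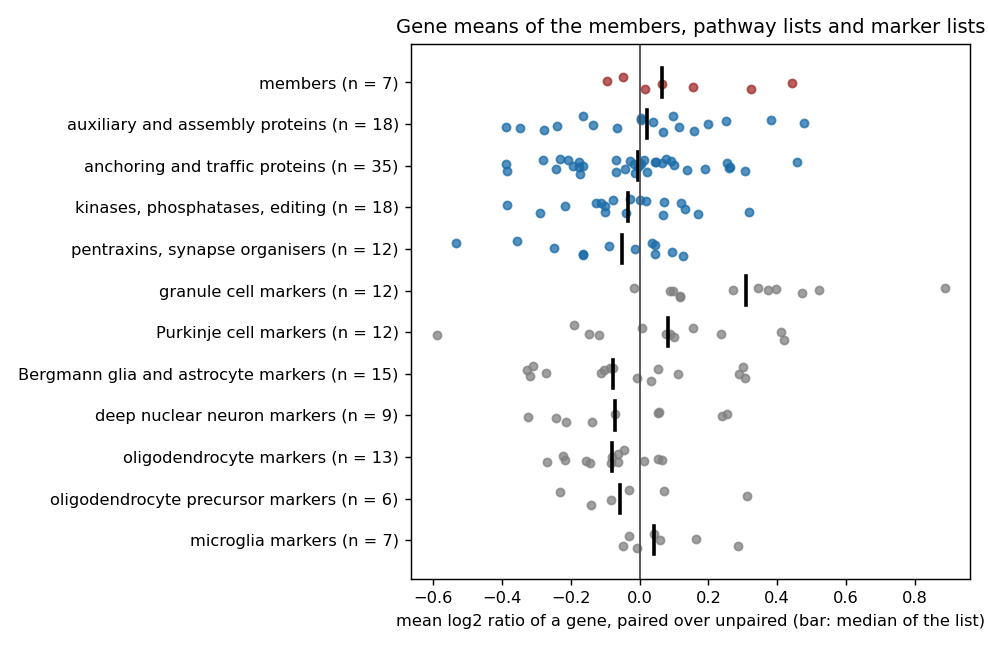
Mean log2 ratio, paired over unpaired, of each gene with a kept probe set (x axis) for the AMPA receptor members (red), the 4 pathway lists (blue) and the 7 marker lists (grey), with a black bar at each list's median. The pathway medians lie between -0.05 and 0.02 and the granule cell median at 0.31; vertical scatter within a row has no meaning.

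Some cell type markers differed between the pools, and their values stand beside the receptor genes because several of these cells express AMPA receptor subunits. Of 12 measured granule cell genes 11 had the higher signal in the paired pool, and the median log2 ratio was 0.31. The lowest was Zic2 at -0.02 and the highest Gabra6, a granule cell GABA receptor subunit, at 0.89. Their summed linear signal was 1.21 times as high in the paired pool on design A (745 unpaired, 904 paired), 1.22 times on B (275 and 334) and 1.25 times on C (265 and 331). The designs measured the same training groups with different probe sets, so their likeness is not replication. None of the 15 granule cell genes with a probe set was at the floor on all of them. The granule cell median lay between 0.30 and 0.33 under the scalings tried. Granule cells express Gria2, Gria4 and Cacng2, whose log2 ratios were 0.15 for the kept Gria2 probe set, 0.50 for the Gria4 probe set and -0.10 for the Cacng2 mean. The part of granule cells in the Gria2 and Gria4 values was not tested.

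Purkinje cell markers had a median of 0.08, with 8 of 12 genes higher, from Kitl at -0.59 to Car8 at 0.42, and Pcp2 at 0.0080. Pcp4 was at the floor in both pools. Their summed signal was between 0.99 and 1.02 times as high in the paired pool over the 3 designs. The brightest probe sets weigh most in such a sum. On design A it came mostly from Pvalb 96719_i_at, at 12.53 unpaired, and Aldoc, at 11.24. On design C it came mostly from Pvalb 168316_i_at, at 8.32, so the sums say little of the dimmer markers. Bergmann glia, which carry receptors of Gria1 and Gria4, and other astrocytes had markers with a median of -0.08, 6 of 15 higher, from S100b at -0.33 to Atp1b2 at 0.31. Their summed signal was 0.98 times as high on design A, 1.10 times on B and 0.82 times on C. The designs carry different glial probe sets, so these sums cannot be matched design by design to other genes. The kept Gria1 probe sets stood at log2 ratios of 0.28 on design A and 0.37 on design B. The part of glia in the Gria1 values was not tested.

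Markers of deep nuclear neurons were set beside the tissue label, with no test of the tissue's identity. Of 13 genes with a probe set 9 were measured, including Slc17a6, the glutamate vesicle transporter of projection neurons, and the neurofilament genes Nefh, Nefm and Nefl. The transcription factor genes Lhx9 and Tbr1 were at the floor in both pools, and Lhx2 and Meis2 were under the signal filter. The list had a median of -0.07, with 4 of 9 higher, from Irx3 at -0.33 to Slc17a6 at 0.25. The Slc17a6 mean came from 3 probe sets that differed, 108915_at on design B at 0.85 and, on design C, 136664_at at -0.08 and 138417_f_at at -0.0025. The summed signal of the list was 0.96, 0.96 and 1.00 times as high in the paired pool on designs A, B and C. On design C the sum came almost wholly from Slc17a6 138417_f_at, at 10.56 unpaired, and so describes that probe set more than the list. Oligodendrocyte markers had a median of -0.08 with 3 of 13 higher, from Sox10 at -0.27 to Aspa at 0.06, and Cnp was at the floor. Markers of their precursors had -0.06 with 2 of 6 higher, from Gpr17 at -0.23 to Olig2 at 0.31, and microglial markers 0.04 with 4 of 7 higher, from Tyrobp at -0.05 to Cx3cr1 at 0.29.

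**Figure D4:**
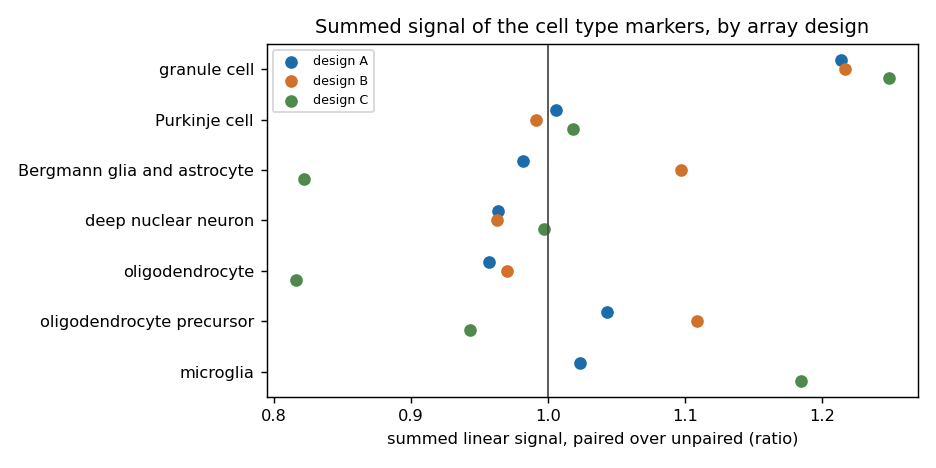
Summed linear signal of the kept marker probe sets of each cell type, as the ratio of the paired to the unpaired array (x axis), with a point for each array design on which the list had a kept probe set. Granule cell markers lie at 1.21 to 1.25 on all 3 designs, Purkinje cell markers between 0.99 and 1.02, and glial markers on both sides of 1. The brightest probe sets weigh most in each sum, and the designs are not replicates.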

How the data were processed

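The deposited values, 1 per probe set and array in a table per array design, were read as log2 signals of biotin-labelled cRNA on arrays of 1 colour. Their range gave the log base. How the authors summarized and normalized the deposited log2 values is not given in the sources used here. Labels ending in A, B or C were read as array designs, not replicates. After 198 control probe sets were set aside, genes were taken from the platform annotation (29131 of 36701 probe sets with a single symbol) and updated through the gene identifier with the RefSeq table of GRCm38.p6 (29044 matched). No build is tied to the values, so no coordinates are given.

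In each design the brighter probe sets, those whose signal reached the median, were brought to a median log2 ratio of 0 by shifting the paired array. Signals under the 25th percentile were set to it, and probe sets at or above the median mean signal were kept: 6211, 6206 and 5934. Pathway genes were named as the highest and lowest of each list and any past 1.5-fold. Cacng5, Cacng8, Cacng4, Grip2, Napa, Napb, Kif5a, Kif5c, Adarb1 and Nptx2 were added after their values were seen. So were the markers Nefh, Nefm, Nefl, Lhx2, Meis2, Pvalb, Aldoc and those at the floor. The members and lists were chosen with earlier results of these data known. Steps were tested on simulated data and run in Python 3.11.15 with statsmodels 0.14.6 (loess, span 0.3). Alternatives were no, quantile or loess scaling, other floors and filters, unsuffixed probe sets, the brightest probe set by rank, and each design alone.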

Additional observations from a re-analysis of the deposited data

How the results depend on the processing

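No kept member probe set changed the direction of its log2 ratio under any scaling, floor or filter tried, and no member probe set passed 1.5-fold in either direction under any alternative that keeps that limit. At 1.2-fold, chosen after seeing the data, 3 were higher. Their median of 0.12 was -0.133 on design C alone, which holds 1 kept probe set, -0.0419 on design B alone and 0.1709 at most over all alternatives. The Gria1 mean of 0.32 was 0.1029 with no signal filter. Gene means turned sign for Cacng2 on design A alone (0.0853), for Nsf on design B alone and with its brightest probe set (-0.0419 in both), for Pick1 under quantile and loess scaling, and for Gria3 with neither filter nor floor (0.0902). Those of Gria1, Gria2 and Nptx1 kept theirs wherever they had a value. Medians of the 4 pathway lists turned sign in 2, 5, 3 and 4 of 14 alternatives each, in the order given, and stayed between -0.0789 and 0.0727. Counting the probe set shared by Npcd and Nptxr changed no count past 1.5-fold. No replicate could be left out and no paired analysis was possible because each group had 1 array per design. Signals at or under the floor carry no order, which limits 1 Grip1, 1 Gria1 and 2 Gria2 probe sets in both pools.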
